A study of Mus musculus with 18 samples.

Results

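The melanosome and pigment synthesis genes are 10 genes that make melanin or build the melanosome, the organelle that stores it: *Tyr*, *Tyrp1*, *Dct*, *Pmel*, *Mlana*, *Slc45a2*, *Oca2*, *Gpr143*, *Mc1r* and *Rab38*. They were taken by symbol from a table of read counts for 52636 genes in mouse RPE. Their levels in 6 groups of 3 libraries are set beside those of 11 genes of the visual cycle and retinol transport.

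Melanin is made from tyrosine inside melanosomes by tyrosinase and its relatives, on a scaffold of protein fibrils and in a lumen whose acidity is set by membrane transporters. The same genes serve the RPE, which derives from the optic cup, and the melanocytes of the choroid, which derive from the neural crest and lie next to it in the eyecup. The RPE makes most of its pigment before and shortly after birth, whereas the visual cycle, which returns retinal to photoreceptors, matures later.

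Newborn C57BL/6 mice were injected subretinally with AAV8, an adeno-associated virus, whose cargo was driven by the *Best1* promoter of the RPE. Each library pooled both eyes of 1 mouse at postnatal day 14. The retina and the optic nerve were taken off, RPE cells were loosened from the eyecup with papain, and directional libraries were prepared from RNA freed of ribosomal RNA. The Uninjected group received no virus. The GFP group received a virus for green fluorescent protein and was the control of the nSrebp2 group, in which the virus carried the nuclear, active form of SREBP2. By its label the Laczsh group received a hairpin against *lacZ*, a bacterial gene. It was taken to be the study's control hairpin and so the control of the Lrp2sh1 and Lrp2sh2 groups. In these, different hairpins were directed against *Lrp2*.

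The libraries held 8921885 (Uninjected 3) to 13696934 (Laczsh 1) counts in genes. Levels are given as CPM, counts scaled to a common library size with TMM factors from the 18 libraries. The limit that a count of 0 sets, 3 counts, lay between 0.219 and 0.336 CPM and covers counting error only. A gene passed the test at an adjusted *P* under 0.05 in edgeR's quasi-likelihood test across all genes of a comparison.

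The targeted genes followed the labels. *Srebf2*, which encodes SREBP2, was at 236, 207 and 209 CPM in the nSrebp2 libraries and at 82.9, 113 and 106 CPM in the GFP libraries (log2FC 1.10; edgeR, adjusted *P* = 0.000121). *Lrp2* was at 29.7, 42.8 and 38.2 CPM with Lrp2sh1 and at 37.8, 34.5 and 43.9 CPM with Lrp2sh2, below the 167, 87.7 and 100.2 CPM of the Laczsh libraries. It fell by 1.68 and 1.60 on the log2 scale, respectively (edgeR, adjusted *P* = 0.00328 and 0.00109). In the nSrebp2 libraries *Lrp2* was at 38.1, 29.8 and 25.3 CPM, and in the GFP libraries at 175, 160.3 and 87.6 CPM (log2FC −2.18; edgeR, adjusted *P* = 0.000233). The Uninjected libraries held 55.3, 139 and 149 CPM of *Lrp2* and 87.2, 114 and 94.9 CPM of *Srebf2*.

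Some libraries stood apart from their groups. Laczsh 1 held 4365 CPM of the 11 visual cycle genes in sum, against 1934 and 2079 CPM in Laczsh 2 and 3. Uninjected 1 held 2882 CPM, against 7837 and 8507 CPM in Uninjected 2 and 3. Uninjected 3 had the highest sum of the pigment genes of all 18 libraries, at 11324 CPM. By their Y-linked genes the 3 nSrebp2 libraries, Uninjected 3, Lrp2sh2 2 and Lrp2sh2 3 were from males and the other 12 from females, so that sex and treatment cannot be told apart within nSrebp2 versus GFP. Lrp2sh2, with 2 males and 1 female, is compared with female Laczsh and Lrp2sh1 libraries, so the same holds there when Lrp2sh2 1 is left out.

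The label RPE was checked against markers of the cells that an eyecup holds. All 7 RPE markers outside the visual cycle were above 0 in every library and summed to 192 to 1117 CPM, with *Trpm3* the most abundant. All 6 markers of melanocytes and other neural crest cells, with the pigment genes left out, were also above 0 in every library and summed to 719 to 1285 CPM, with *Ednrb* the most abundant. Among them *Sox10*, which is absent from the RPE, was at 83.2 to 141 CPM. Fibroblast markers, led by *Col1a1*, summed to 18677 to 87672 CPM. The pigment genes were thus measured in a mixture, and the share of their reads that came from melanocytes was not tested. In such libraries fewer cells of a type and less RNA per cell cannot be told apart.

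All 10 pigment genes were found under their Ensembl identifiers and are placed here by the GENCODE M21 annotation of GRCm38. This annotation may not be the one used for counting, since the identifiers of *Dct* and *Mlana* have other version numbers in it. The enzyme genes are *Tyr* (ENSMUSG00000004651.6, chr7:87424771-87493512, minus strand), *Tyrp1* (ENSMUSG00000005994.14, chr4:80834123-80851719, plus strand) and *Dct* (ENSMUSG00000022129.3, chr14:118012790-118052244, minus strand). The structural genes are *Pmel* (ENSMUSG00000025359.10, chr10:128704195-128720238, plus strand) and *Mlana* (ENSMUSG00000024806.3, chr19:29697824-29708634, plus strand). The transporter genes are *Slc45a2* (ENSMUSG00000022243.10, chr15:11000721-11029233, plus strand) and *Oca2* (ENSMUSG00000030450.11, chr7:56239760-56536518, plus strand). The receptor genes are *Gpr143* (ENSMUSG00000025333.10, chrX:152781921-152808646, plus strand) and *Mc1r* (ENSMUSG00000074037.3, chr8:123407107-123410744, plus strand). *Rab38* (ENSMUSG00000030559.8, chr7:88430273-88491572, plus strand) is the trafficking gene. Exons of *Pmel* overlap those of *Cdk2* by 34 bases and those of *Dgka* by 105 bases on the opposite strand, and the exon of *Mc1r* overlaps *Gm38092* on the opposite strand by 653 bases. Whether the authors' counting used the strand is not given in the sources used here, so the counts of these genes may include reads of their partners. No exon of the other 8 pigment genes overlaps another gene.

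Per kilobase of exon the pigment genes spanned a wide range. *Pmel* had the highest mean over the 18 libraries, at 1120.5 CPM per kb, followed by *Tyrp1* at 744 and *Dct* at 425 CPM per kb. *Mlana* followed at 141, *Tyr* at 61.8, *Slc45a2* at 56.2, *Rab38* at 40.7, *Oca2* at 35.9 and *Gpr143* at 14.3 CPM per kb. This order did not hold in every group: *Slc45a2* was above *Tyr* in GFP, nSrebp2 and Uninjected, and *Oca2* above *Rab38* in Uninjected. *Mc1r* was lowest, at 0.936 CPM per kb. In every library each of the 10 genes was above the limit of a count of 0.

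Of the enzyme genes, *Tyr* encodes tyrosinase, the rate-limiting enzyme of melanin synthesis, and its level was 394 ± 111 CPM in Uninjected, 416 ± 23.9 in GFP, 378 ± 53.0 in nSrebp2, 518 ± 33.1 in Laczsh, 429.9 ± 34.2 in Lrp2sh1 and 499 ± 57.5 CPM in Lrp2sh2 (mean ± SD, n = 3). The order of its group means was Laczsh, Lrp2sh2, Lrp2sh1, GFP, Uninjected and nSrebp2, and every neighbouring pair in that order overlapped. *Tyrp1*, an oxidase that acts after tyrosinase, was at 2335 ± 747 CPM in Uninjected, 2375 ± 124 in GFP, 2208 ± 319.8 in nSrebp2, 2117 ± 101 in Laczsh, 1811 ± 175 in Lrp2sh1 and 1772 ± 258 CPM in Lrp2sh2 (mean ± SD, n = 3). Its order was GFP, Uninjected, nSrebp2, Laczsh, Lrp2sh1 and Lrp2sh2, and among neighbours only Laczsh and Lrp2sh1 did not overlap. *Dct*, the dopachrome tautomerase that turns dopachrome into a carboxylated precursor of eumelanin, was at 2902 ± 755 CPM in Uninjected, 2742 ± 175 in GFP, 2597 ± 359.8 in nSrebp2, 2501 ± 151 in Laczsh, 2294 ± 246 in Lrp2sh1 and 2008 ± 248 CPM in Lrp2sh2 (mean ± SD, n = 3), which is also the order of its means, with overlap between all neighbours.

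Among the structural genes, *Pmel*, whose product forms the fibrils on which melanin is laid down, was at 2743 ± 458 CPM in Uninjected, 2689 ± 100.3 in GFP, 2889.7 ± 388 in nSrebp2, 2609 ± 272 in Laczsh, 2409.9 ± 249.6 in Lrp2sh1 and 2068 ± 187 CPM in Lrp2sh2 (mean ± SD, n = 3). Its means were ordered nSrebp2, Uninjected, GFP, Laczsh, Lrp2sh1 and Lrp2sh2, with overlap between all neighbours. *Mlana*, whose product binds PMEL and is needed for its processing, was at 178 ± 69.9 CPM in Uninjected, 197 ± 12.6 in GFP, 154 ± 11.9 in nSrebp2, 145 ± 4.21 in Laczsh, 117 ± 15.8 in Lrp2sh1 and 106 ± 18.8 CPM in Lrp2sh2 (mean ± SD, n = 3). The highest mean was that of GFP, followed by Uninjected, nSrebp2, Laczsh, Lrp2sh1 and Lrp2sh2, and of the neighbours only Laczsh and Lrp2sh1 were apart.

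The transporter genes *Slc45a2* and *Oca2* encode melanosomal membrane proteins that act on the pH of the lumen. *Slc45a2* was at 168 ± 36.6 CPM in Uninjected, 179 ± 16.9 in GFP, 187 ± 25.5 in nSrebp2, 169 ± 6.73 in Laczsh, 159.6 ± 14.6 in Lrp2sh1 and 143 ± 17.6 CPM in Lrp2sh2 (mean ± SD, n = 3), and all neighbours in the order nSrebp2, GFP, Laczsh, Uninjected, Lrp2sh1 and Lrp2sh2 overlapped. *Oca2* was at 178 ± 38.4 CPM in Uninjected, 131 ± 12.5 in GFP, 134 ± 18.9 in nSrebp2, 146 ± 20.8 in Laczsh, 153 ± 8.18 in Lrp2sh1 and 112 ± 4.59 CPM in Lrp2sh2 (mean ± SD, n = 3). Its order was Uninjected, Lrp2sh1, Laczsh, nSrebp2, GFP and Lrp2sh2, and only the lowest group, Lrp2sh2, was apart from its neighbour.

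Of the receptor genes, *Gpr143*, mutated in ocular albinism and encoding a receptor of the melanosome membrane, was at 38.7 ± 9.21 CPM in Uninjected, 32.5 ± 1.58 in GFP, 23.3 ± 4.14 in nSrebp2, 31.8 ± 2.82 in Laczsh, 24.1 ± 2.33 in Lrp2sh1 and 20.3 ± 2.37 CPM in Lrp2sh2 (mean ± SD, n = 3). Uninjected, GFP and Laczsh stood at the top of its order and Lrp2sh1, nSrebp2 and Lrp2sh2 at the bottom, with a gap between Laczsh and Lrp2sh1 and overlap between the other neighbours. *Mc1r*, the melanocortin receptor that drives eumelanin synthesis in melanocytes, was low in every group, at 3.44 ± 0.950 CPM in Uninjected, 2.65 ± 0.826 in GFP, 4.81 ± 1.11 in nSrebp2, 3.08 ± 0.602 in Laczsh, 3.45 ± 0.178 in Lrp2sh1 and 2.99 ± 0.799 CPM in Lrp2sh2 (mean ± SD, n = 3). Only nSrebp2, the highest group, was apart from its neighbour, Lrp2sh1. *Rab38*, a small GTPase that carries tyrosinase and TYRP1 to the melanosome, was at 57.7 ± 12.7 CPM in Uninjected, 70.3 ± 2.99 in GFP, 61.7 ± 6.12 in nSrebp2, 65.1 ± 3.33 in Laczsh, 68.4 ± 6.63 in Lrp2sh1 and 61.7 ± 5.81 CPM in Lrp2sh2 (mean ± SD, n = 3), with overlap between all neighbours in its order.

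**Figure D1:**
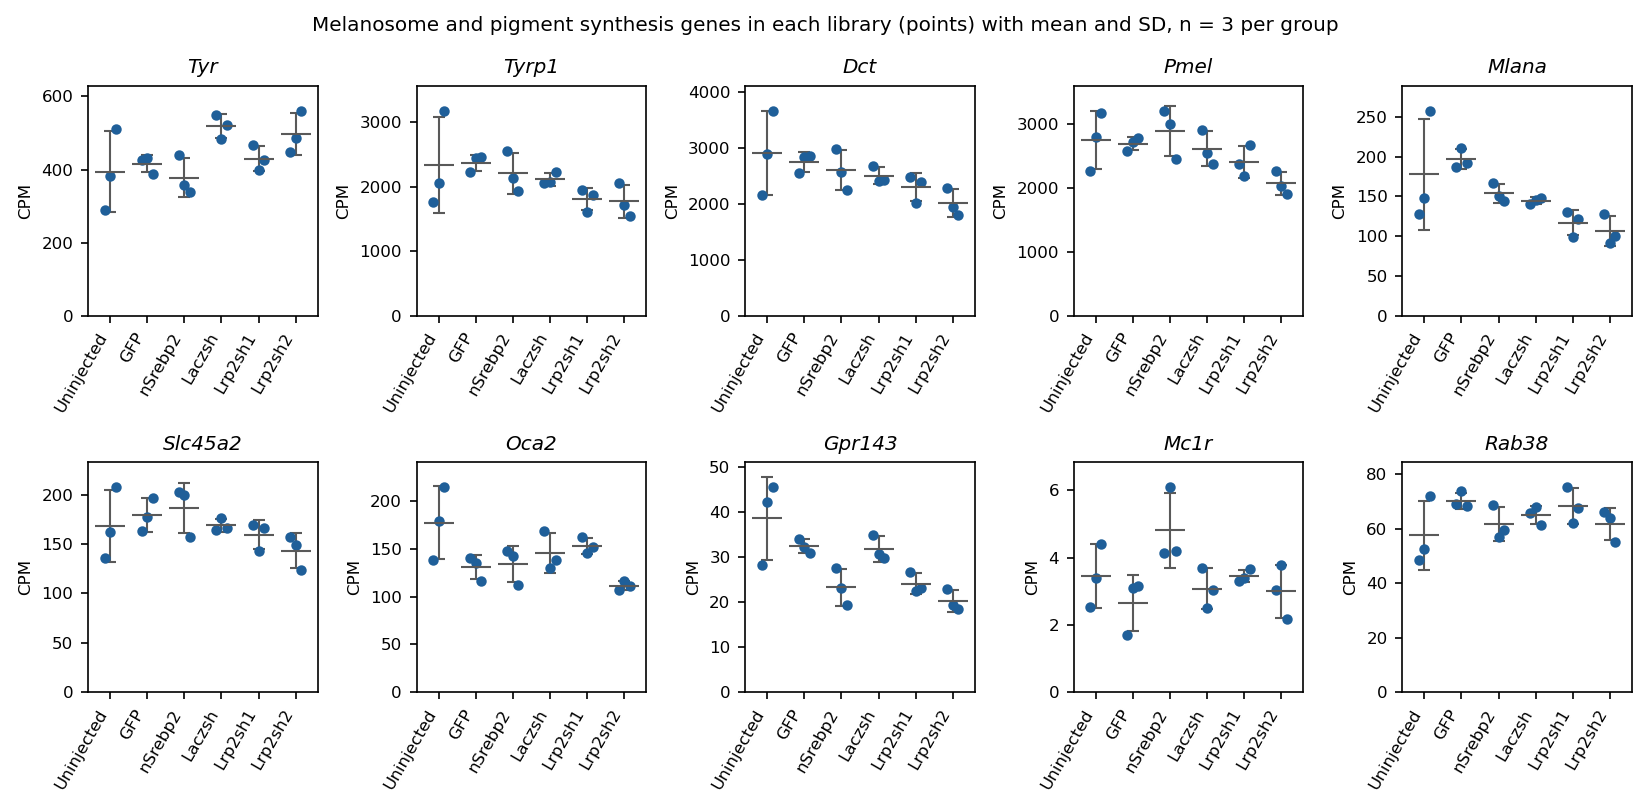
Level of each of the 10 pigment genes in CPM (y axes, linear from 0) in the 3 libraries of each group (x axes); points are libraries, horizontal lines are group means and bars are ± SD. The widest spread within a group is that of Uninjected for 9 of the genes, and *Gpr143* and *Mlana* have the largest folds between their highest and lowest group means, 1.91 and 1.85.

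Over the 18 libraries the sum of the pigment genes moved 1.82-fold, from 6215 CPM in Lrp2sh2 3 to 11324 CPM in Uninjected 3, whereas the sum of the 11 visual cycle genes moved 22.2-fold, from 383 CPM in GFP 3 to 8507 CPM in Uninjected 3. Single pigment genes moved 1.55-fold (*Rab38*) to 3.59-fold (*Mc1r*) between their lowest and highest libraries, with *Mlana* at 2.82-fold and *Gpr143* at 2.45-fold. Single visual cycle genes moved up to 1047-fold (*Rpe65*, the isomerase of the cycle). By group the pigment genes summed to 8998 ± 2202 CPM in Uninjected, 8835 ± 400.1 in GFP, 8637 ± 1157 in nSrebp2, 8304 ± 397 in Laczsh, 7471 ± 680.1 in Lrp2sh1 and 6793 ± 676 CPM in Lrp2sh2 (mean ± SD, n = 3). The visual cycle genes summed to 6408 ± 3072, 477 ± 84.3, 523 ± 77.2, 2792 ± 1364, 1954 ± 518 and 618 ± 191 CPM in the same groups (mean ± SD, n = 3). For each CPM of visual cycle genes a library held 1.11 CPM (Uninjected 2) to 23.7 CPM (GFP 3) of pigment genes.

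**Figure D2:**
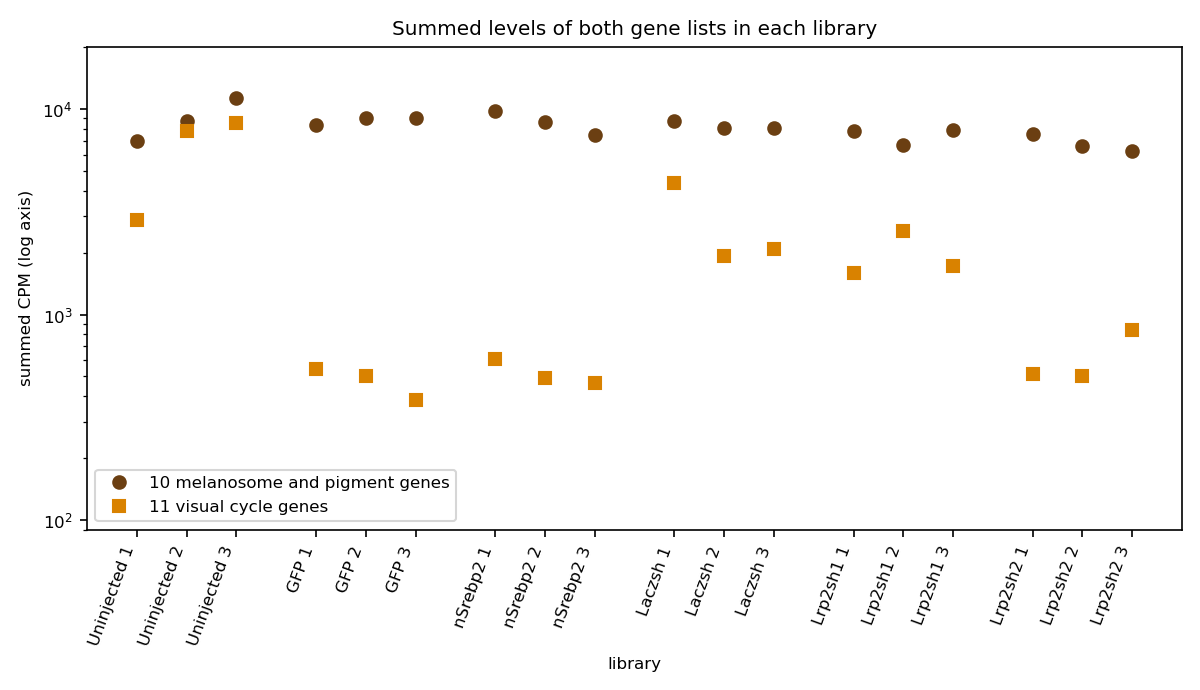
Sum in CPM (log y axis) of the 10 pigment genes (circles) and of the 11 visual cycle genes (squares) in each of the 18 libraries (x axis). The circles lie between 6215 and 11324 CPM, and the squares between 383 and 8507 CPM, with the GFP, nSrebp2 and Lrp2sh2 libraries lowest.

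GFP versus Uninjected compares mice injected with the GFP virus with mice that were not injected. Injection, virus and GFP cannot be told apart in it. The pigment genes did not pass the test while 10 of the 11 visual cycle genes fell. *Tyr* was at 289, 382 and 509.9 CPM in the Uninjected libraries and at 427, 433 and 389 CPM in the GFP libraries. *Tyrp1* was at 1766, 2059.6 and 3181 CPM in the Uninjected libraries and at 2232, 2439 and 2455 CPM in the GFP libraries. For both genes all 3 GFP values lay inside the range of the Uninjected libraries, which were low in Uninjected 1 and high in Uninjected 3. *Oca2* was at 138, 179.9 and 215 CPM in the Uninjected libraries and at 140.5, 136 and 117 CPM in the GFP libraries. It had the most negative log2FC of the 10 genes, −0.46 (SE 0.15; edgeR, adjusted *P* = 0.145), and the groups overlapped through Uninjected 1. *Oca2* passed in edgeR's fit of all 18 libraries and without a filter on low counts. By edgeR 0 of the 10 pigment genes passed, against 0.662% of the 17837 genes tested that were higher and 1.82% that were lower. At an unadjusted *P* under 0.05 there was 1 pigment gene, and DESeq2 called 0. The log2FC of the pigment genes ran from −0.46 to 0.27, with a median of −0.023, beside −0.0035 for all genes tested.

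In the same comparison *Rpe65* was at 371, 955 and 1115 CPM in the Uninjected libraries and at 2.29, 1.06 and 1.58 CPM in the GFP libraries, without overlap. It fell by 8.95 on the log2 scale (SE 0.52; edgeR, adjusted *P* = 0.000321). *Rgr*, an opsin of the RPE (log2FC −6.30), *Ttr*, the retinol carrier transthyretin (−4.86), and *Lrat*, which makes retinyl esters (−4.63), fell as well, and the 11 genes had a median log2FC of −3.22. *Rdh11*, a retinol dehydrogenase, was the exception at −0.66 (edgeR, adjusted *P* = 0.0646). Of the RPE markers outside the visual cycle 3 of 7 fell, *Ermn* (log2FC −4.78), *Slc16a8* (−3.40) and *Mertk* (−0.77). Their sum was 543, 1104 and 1117 CPM in the Uninjected libraries and 654, 617 and 435 CPM in the GFP libraries. The melanocyte markers summed to 766, 825 and 1285 CPM in the Uninjected libraries and to 922, 924 and 992 CPM in the GFP libraries. Of these 6 markers 0 passed by edgeR, with 0 at an unadjusted *P* under 0.05 and 0 by DESeq2. The macrophage marker *Csf1r* fell (log2FC −0.68), 1 of 8. Among endothelial and blood markers 0 of 8 and 0 of 5 passed by edgeR. At an unadjusted *P* under 0.05 edgeR had 3 and 2 lower, and DESeq2 called 2 and 1 lower. The rod markers *Nrl* and *Crx* rose (2 of 13 tested; 11 were higher and 1 lower at an unadjusted *P* under 0.05, and 9 higher by DESeq2), and the rod list summed to 41.6, 54.2 and 59.0 CPM in the Uninjected and to 47.0, 131 and 350.4 CPM in the GFP libraries. Fibroblast markers, led by *Col1a1*, summed to 30549, 30603 and 18677 CPM in the Uninjected and to 34862, 39907 and 44491 CPM in the GFP libraries, without overlap; by edgeR 0 of 7 passed, with 4 higher at an unadjusted *P* under 0.05 and 3 by DESeq2. The part of these cells in the result was not tested. Without Uninjected 1, *Oca2* and *Gpr143* passed the test, making 2 pigment genes, and all 11 visual cycle genes passed. Without GFP 2, 6 visual cycle genes passed.

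Laczsh versus Uninjected makes that comparison for the hairpin control, and injection, virus and hairpin cannot be told apart in it either. It shares its Uninjected libraries with the comparison above. *Tyr* was at 550.1, 484 and 521 CPM in the Laczsh libraries, against 289, 382 and 509.9 CPM in the Uninjected libraries. Only Uninjected 3 reached into the range of Laczsh. *Tyr* had the largest positive log2FC of the pigment genes, 0.37 (SE 0.18; edgeR, adjusted *P* = 0.231), and when sex was added to a joint fit of the 18 libraries it was 0.55 and passed (edgeR, adjusted *P* = 0.00956). Only Uninjected and Lrp2sh2 held both sexes, so the sex term came from males Uninjected 3, Lrp2sh2 2 and Lrp2sh2 3. Uninjected 3 stood apart from its group, and this limit holds for every value with sex as a term. By edgeR 0 of the 10 pigment genes passed, against 3.13% of the 17822 genes tested that were higher and 3.37% that were lower; there were 0 at an unadjusted *P* under 0.05 and 0 by DESeq2. Their log2FC ran from −0.32 (*Mlana*) to 0.37, with a median of −0.17, beside −0.0038 for all genes.

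The visual cycle genes were lower in Laczsh in all 11 cases, beside 50.6% of all genes tested, with a median log2FC of −1.22. By edgeR 0 passed, with 7 at an unadjusted *P* under 0.05 and 1, *Rpe65*, by DESeq2. *Rpe65* was at 97.8, 2.58 and 1.77 CPM in the Laczsh libraries (log2FC −4.59, SE 1.26; edgeR, adjusted *P* = 0.0645). Laczsh 1 was thus far above the other 2. The fit of all 18 libraries had 7 visual cycle genes past the test. Without Laczsh 1, 7 visual cycle genes and 0 pigment genes passed. Without Uninjected 1, 3 visual cycle genes and 1 pigment gene, *Gpr143*, passed. With both left out, a choice made after seeing the data that leaves 4 libraries, all 11 visual cycle genes and 2 pigment genes, *Oca2* and *Gpr143*, were lower in Laczsh and passed. The melanocyte markers summed to 946, 1105 and 906 CPM in the Laczsh libraries, and by edgeR 0 of 6 passed, with 1 at an unadjusted *P* under 0.05 and 0 by DESeq2. Of the RPE markers *Mertk* fell (log2FC −0.57), 1 of 7, and their sum was 911, 465 and 519 CPM in the Laczsh libraries. Of the Schwann cell markers 2 of 8 rose, *Mbp* (3.08) among them, and the list summed to 402, 433 and 432 CPM in the Uninjected and to 769.7, 1199 and 502 CPM in the Laczsh libraries. *Csf1r* (−0.55) and *Ptprc* (−0.54) of the macrophage list fell, 2 of 8. Among endothelial markers 0 of 8 passed by edgeR, with 4 lower at an unadjusted *P* under 0.05 and 1 lower by DESeq2. Fibroblast markers summed to 33650, 46979 and 47749 CPM in the Laczsh libraries, above every Uninjected library; by edgeR 0 of 7 passed, with 3 higher and 1 lower at an unadjusted *P* under 0.05 and 3 higher by DESeq2. The part of these cells in the values of the pigment genes was not tested.

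In nSrebp2 versus GFP, which asks what active SREBP2 does beyond the vector, *Mlana* and *Gpr143* fell and the other 8 pigment genes did not pass. *Mlana* was at 187, 211 and 192 CPM in the GFP libraries and at 167, 150.5 and 144 CPM in the nSrebp2 libraries. Every nSrebp2 library lay below every GFP library. *Mlana* fell by 0.36 on the log2 scale (SE 0.076; edgeR, adjusted *P* = 0.00841), lower in 3 of 3 libraries. *Gpr143* was at 34.1, 32.3 and 31.0 CPM in the GFP libraries and at 27.5, 23.1 and 19.3 CPM in the nSrebp2 libraries, again without overlap. It fell by 0.48 (SE 0.12; edgeR, adjusted *P* = 0.0201). Thus 2 pigment genes were lower, beside 8.47% of the 17927 genes tested, and 0 were higher, beside 12.6%; at an unadjusted *P* under 0.05 edgeR had 1 higher, and DESeq2 had 0.

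*Mc1r* was at 1.70, 3.11 and 3.15 CPM in the GFP libraries and at 4.14, 6.10 and 4.20 CPM in the nSrebp2 libraries. The groups did not overlap, and the log2FC of 0.86 (SE 0.29) did not pass (edgeR, adjusted *P* = 0.0642). With *Mlana* and *Gpr143* it made 3 of 10 pigment genes whose groups did not overlap, beside 37.5% of all genes tested. The enzyme genes *Tyr*, *Tyrp1* and *Dct* had log2FC of −0.14, −0.11 and −0.082, and the groups overlapped for each. *Pmel* (0.10), *Slc45a2* (0.054) and *Oca2* (0.031) were on the positive side, and *Rab38* was at −0.19. With library totals in place of TMM factors *Slc45a2* was at −0.023 and *Oca2* at −0.050, and this scaling put the median of all genes at −0.10. The median of the pigment genes was −0.096 with TMM factors, beside −0.020 for all genes. The call of *Gpr143* was lost without GFP 1, GFP 2 or nSrebp2 2, which left 1 gene, *Mlana*. The log2FC of *Gpr143* ran from −0.61 to −0.36 over the 6 libraries left out in turn. In a fit of 18 libraries with sex as a term *Mlana* was at −0.62 (edgeR, adjusted *P* = 0.143), *Gpr143* at −0.55 (0.132) and *Tyr* at −0.57 (0.0348). All GFP libraries were female and all nSrebp2 libraries male, so the sex term came from Uninjected 3, Lrp2sh2 2 and Lrp2sh2 3 alone, and Uninjected 3 stood apart from its group. These values, the call of *Tyr* included, therefore do not separate sex from treatment.

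The visual cycle genes, already low in GFP, split in this comparison. *Lrat* (27.6, 28.3 and 20.2 CPM with GFP and 9.03, 9.24 and 9.14 CPM with nSrebp2) fell by 1.47 (edgeR, adjusted *P* = 0.000105), and *Rdh5*, the 11-cis retinol dehydrogenase, fell by 1.10 (edgeR, adjusted *P* = 0.000648). *Rdh5* shares 720 exon bases with *Bloc1s1* on the same strand, so its count is uncertain. *Rdh11* rose (20.1, 19.5 and 21.8 CPM with GFP and 72.0, 51.3 and 50.9 CPM with nSrebp2; log2FC 1.497; edgeR, adjusted *P* = 6.44e-05), and so did *Ttr* (log2FC 0.84; edgeR, adjusted *P* = 0.0229). The other 7 did not pass, and the median was 0.11. In a fit of all 18 libraries only *Rdh11* passed, and the calls of *Lrat*, *Rdh5* and *Ttr* were lost, as they were with sex as a term; DESeq2 did not call *Ttr* either. The RPE markers outside the cycle summed to 654, 617 and 435 CPM in the GFP and to 249, 248 and 192 CPM in the nSrebp2 libraries; *Trpm3* (log2FC −2.08) and *Kcnj13* (−0.45) fell, and *Best1* (1.75) and *Ermn* (0.96) rose, among 7. *Best1* is also the gene whose promoter the virus carries.

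Markers of other cells moved in the same libraries. The melanocyte markers summed to 922, 924 and 992 CPM in the GFP libraries and to 875, 785 and 808 CPM in the nSrebp2 libraries, and 1 of 6, *Ednrb*, the most abundant, fell (log2FC −0.36). The log2FC of 4 of the 6 was positive, with *Pax3* at 0.42 and a median of 0.044, and at an unadjusted *P* under 0.05 there were 2 higher and 2 lower. Fibroblast markers rose in 7 of 7 cases and summed to 34862, 39907 and 44491 CPM with GFP and to 87672, 72036 and 80925 CPM with nSrebp2. All 8 macrophage markers rose, from sums of 304, 315 and 349.9 CPM to 604, 562 and 577 CPM, with *Csf1r* the most abundant. Endothelial markers fell in 6 of 8 cases, from 1759, 1774 and 2229 CPM to 1417, 1366 and 1327 CPM. Rod markers rose in 4 of 15 cases, with sums of 47.0, 131 and 350.4 CPM with GFP and of 422, 359.8 and 298 CPM with nSrebp2, which overlapped through GFP 3. Of the Schwann cell markers 1 of 8, *Cdh19*, fell (log2FC −0.34). Among blood and muscle markers 0 of 5 and 0 of 4 passed by edgeR, with 1 and 0 at an unadjusted *P* under 0.05 and 0 in each by DESeq2. The part of these cells in the fall of *Mlana* and *Gpr143* was not tested.

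Lrp2sh1 versus Laczsh asks what loss of *Lrp2* does, and no pigment gene passed in it. *Gpr143* was at 35.0, 30.7 and 29.8 CPM in the Laczsh libraries and at 26.8, 22.4 and 23.2 CPM in the Lrp2sh1 libraries. All Lrp2sh1 libraries lay below all Laczsh libraries, and the log2FC was −0.40 (SE 0.10; edgeR, adjusted *P* = 0.0506). *Tyr* was at 550.1, 484 and 521 CPM with Laczsh and at 466, 398 and 426 CPM with Lrp2sh1, without overlap (log2FC −0.27, SE 0.075; edgeR, adjusted *P* = 0.0746). *Mlana* was at 140.02, 145 and 148 CPM with Laczsh and at 129.8, 99.4 and 122 CPM with Lrp2sh1, also without overlap (log2FC −0.30, SE 0.091; edgeR, adjusted *P* = 0.0921). *Tyrp1* was the other gene without overlap (log2FC −0.22), so that these were 4 of 10, beside 25.1% of the genes tested. By edgeR 0 of 10 passed, beside 3.06% of the 17801 genes tested that were higher and 2.28% that were lower. At an unadjusted *P* under 0.05 there were 4, and DESeq2 called 3, *Tyr*, *Mlana* and *Gpr143*. The shares above are for edgeR's adjusted *P* and do not serve as background for these counts. The log2FC of the 10 genes ran from −0.40 to 0.16 (*Mc1r*), with a median of −0.12, beside −0.0082 for all genes.

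The visual cycle genes had a median log2FC of −0.48 with Lrp2sh1, and by edgeR 0 of 11 passed, with 1 at an unadjusted *P* under 0.05 and 0 by DESeq2. *Rpe65* was at 3.56, 44.1 and 5.19 CPM with Lrp2sh1, of which Lrp2sh1 2 was the highest, and at 97.8, 2.58 and 1.77 CPM with Laczsh. Without Laczsh 1, 4 visual cycle genes passed as higher in Lrp2sh1, whereas without a filter on low counts 4 passed as lower (*Rdh10*, *Rrh*, *Stra6* and *Ttr*), and the median over the libraries left out in turn ran from −0.92 to 0.40. By edgeR the pigment genes stayed at 0 whichever library was left out, and without the filter *Tyr*, *Mlana* and *Gpr143* passed as lower. The melanocyte markers summed to 822, 725 and 834 CPM in the Lrp2sh1 libraries, against 946, 1105 and 906 CPM with Laczsh, and by edgeR 0 of 6 passed, with 3 at an unadjusted *P* under 0.05 and 1 by DESeq2. Of the other marker lists *Csf1r* of the macrophage list (log2FC −0.30) and *Hba-a2* of the blood list (−0.42) fell. All 5 blood, 8 macrophage and 8 endothelial markers had a negative log2FC, beside 51.5% of all genes tested. By edgeR 5, 3 and 2 of these were lower at an unadjusted *P* under 0.05, and DESeq2 called 3, 1 and 0. Of the fibroblast markers 6 of 7 were positive, with 1 higher at an unadjusted *P* under 0.05 by edgeR and 1 by DESeq2. The part of these cells in the values of the pigment genes was not tested.

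Lrp2sh2 versus Laczsh asks the same with the other hairpin and shares the Laczsh libraries. *Gpr143*, *Mlana* and *Oca2* fell, and all 10 pigment genes had a negative log2FC, beside 49.1% of all genes tested. *Gpr143* was at 23.0, 19.3 and 18.6 CPM in the Lrp2sh2 libraries, below the 35.0, 30.7 and 29.8 CPM of the Laczsh libraries. It fell by 0.64 (SE 0.11; edgeR, adjusted *P* = 0.00384), the largest fall among the pigment genes in this comparison, and passed whichever library was left out. *Mlana* was at 127, 91.5 and 99.5 CPM with Lrp2sh2 and at 140.02, 145 and 148 CPM with Laczsh, and it fell by 0.44 (SE 0.11; edgeR, adjusted *P* = 0.0238). *Oca2* was at 107, 117 and 111 CPM with Lrp2sh2 and at 169, 129.7 and 139 CPM with Laczsh, and it fell by 0.37 (SE 0.095; edgeR, adjusted *P* = 0.025). For each of the 3 genes no Lrp2sh2 library reached the lowest Laczsh library. These 3 genes stood beside 9.48% of the 18089 genes tested that were lower. The pigment genes higher in Lrp2sh2 numbered 0 by edgeR, beside 8.59% of genes, with 0 at an unadjusted *P* under 0.05 and 0 by DESeq2.

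*Pmel* was at 2268, 2035 and 1899 CPM with Lrp2sh2 and at 2908, 2543 and 2376 CPM with Laczsh, without overlap (log2FC −0.32, SE 0.10; edgeR, adjusted *P* = 0.0611). *Dct* was at 2281, 1946 and 1798 CPM with Lrp2sh2 and at 2675, 2409.99 and 2417 CPM with Laczsh, without overlap (log2FC −0.30, SE 0.10; edgeR, adjusted *P* = 0.0739). DESeq2 called both, and with them 5 pigment genes. With *Slc45a2* (log2FC −0.23), *Gpr143*, *Mlana* and *Oca2* they made 6 of 10 whose groups did not overlap, beside 36.8% of the genes tested. *Tyr*, at 449, 486 and 561 CPM with Lrp2sh2, overlapped Laczsh (log2FC −0.045), as did *Tyrp1* (−0.24), *Rab38* (−0.065) and *Mc1r* (−0.029). The median of the 10 genes was −0.27, beside 0.0061 for all genes. *Mlana* was lost from the genes past the test without Laczsh 2, which left 2; *Gpr143* alone passed without Laczsh 3, Lrp2sh2 2 or Lrp2sh2 3; and without Lrp2sh2 1, with only males left in Lrp2sh2, there were 5, which held *Mlana* and *Gpr143* but not *Oca2*. In a fit of all 18 libraries only *Gpr143* passed, and the calls of *Mlana* and *Oca2* were lost. The call of *Oca2* was also lost with the replicate number as a block. With sex as a term in that fit *Mlana* was at −0.59 (edgeR, adjusted *P* = 0.0761), and *Gpr143* and *Oca2* passed.

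The visual cycle genes were lower by more: 5 of 11 fell, *Lrat* (log2FC −4.44), *Ttr* (−2.94), *Rdh10*, a retinol dehydrogenase (−2.22), *Rrh*, the opsin peropsin (−2.10), and *Rdh5* (−1.58). The median was −2.05, and all 11 were negative, beside 49.1% of all genes tested. *Rpe65* was at 3.51, 5.45 and 15.7 CPM with Lrp2sh2, inside the range of the Laczsh libraries (log2FC −2.05, SE 1.21; edgeR, adjusted *P* = 0.283). Without Lrp2sh2 2, 3 visual cycle genes passed, and without a filter on low counts 9 passed, all lower.

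Among the markers, the melanocyte list summed to 807, 719 and 732 CPM with Lrp2sh2, against 946, 1105 and 906 CPM with Laczsh, and *Ednrb* (log2FC −0.43) and *Kit* (−0.30) fell, 2 of 6. RPE markers outside the cycle fell in 4 of 7 cases, led by *Slc16a8* (log2FC −2.43), and summed to 243, 228 and 295 CPM with Lrp2sh2 against 911, 465 and 519 CPM with Laczsh. Rod markers rose in 12 of 15 cases, led by *Crx* (log2FC 3.80), and summed to 488, 103 and 132 CPM with Lrp2sh2 against 54.4, 75.2 and 56.7 CPM with Laczsh. Endothelial markers fell in 7 of 8 cases, from sums of 2034, 1998 and 1915 CPM to 1258, 1311 and 1255 CPM, and blood markers, led by *Hbb-bs*, in 5 of 5, from 638, 805 and 702 CPM to 351, 429.7 and 440.5 CPM. Fibroblast markers rose in 2 of 7 cases, *Lum* (0.48) and *Col3a1* (0.44), and macrophage markers in 2 of 8, *Ptprc* (0.72) and *Cx3cr1* (0.56). *Pmp22* fell among 8 Schwann cell markers (log2FC −0.41), and by edgeR 0 of 4 muscle markers passed, with 1 at an unadjusted *P* under 0.05 and 1 by DESeq2. The part of these cells in the fall of the pigment genes was not tested.

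In the direct test of the hairpins, Lrp2sh2 versus Lrp2sh1, *Oca2* was at 107, 117 and 111 CPM with Lrp2sh2 and at 162, 146 and 152 CPM with Lrp2sh1. The groups were far apart relative to their spread, and *Oca2* fell by 0.45 (SE 0.063; edgeR, adjusted *P* = 0.000784). It passed whichever library was left out, and with sex as a term, under the limit given above, it was at −0.63 (edgeR, adjusted *P* = 0.00908). By edgeR *Oca2* was the only 1 of 10 pigment genes that was lower past the test, beside 12.3% of the 17975 genes tested, and 0 were higher by edgeR, beside 10.2%, with 1 at an unadjusted *P* under 0.05 and 0 by DESeq2. *Tyr* had the opposite sign (log2FC 0.22; edgeR, adjusted *P* = 0.112) and passed without Lrp2sh2 1, which made 2 genes but set male libraries against female ones, and with sex as a term it was at −0.067 (edgeR, adjusted *P* = 0.814). Differences between the hairpins in *Gpr143* (−0.24), *Mlana* (−0.14), *Pmel* (−0.21) and *Dct* (−0.19) did not pass. *Pmel* was called lower beside *Oca2* by DESeq2 and by edgeR without a filter on low counts. The median of the pigment genes was −0.17, beside 0.011 for all genes. Of the visual cycle genes 9 of 11 fell, all but *Rpe65* and *Stra6*, the receptor for retinol-binding protein, with *Lrat* at −3.57, *Ttr* at −2.23 and a median of −1.32. With all 18 libraries in 1 fit 4 of them passed, *Lrat*, *Rdh5*, *Rdh10* and *Ttr*.

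The melanocyte markers did not differ between the hairpins past the test (0 of 6 by edgeR, 2 at an unadjusted *P* under 0.05 and 0 by DESeq2). Other lists did. The RPE markers were lower with Lrp2sh2 in 5 of 7 cases, with sums of 532, 669 and 551 CPM with Lrp2sh1 and of 243, 228 and 295 CPM with Lrp2sh2, and the endothelial markers in 8 of 8, with sums of 1889.6, 1844 and 1766 CPM with Lrp2sh1. The rod markers were higher in 12 of 15 cases, with sums of 40.6, 43.4 and 78.9 CPM with Lrp2sh1, and the macrophage markers in 7 of 8, with sums of 278, 265 and 301 CPM with Lrp2sh1 and 473, 378 and 355 CPM with Lrp2sh2. Blood markers were lower in 3 of 5 cases and Schwann cell markers in 3 of 8, and 1 of 7 fibroblast markers, *Lum* (log2FC 0.40), was higher. Their part in the lower level of *Oca2* was not tested.

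**Figure D3:**
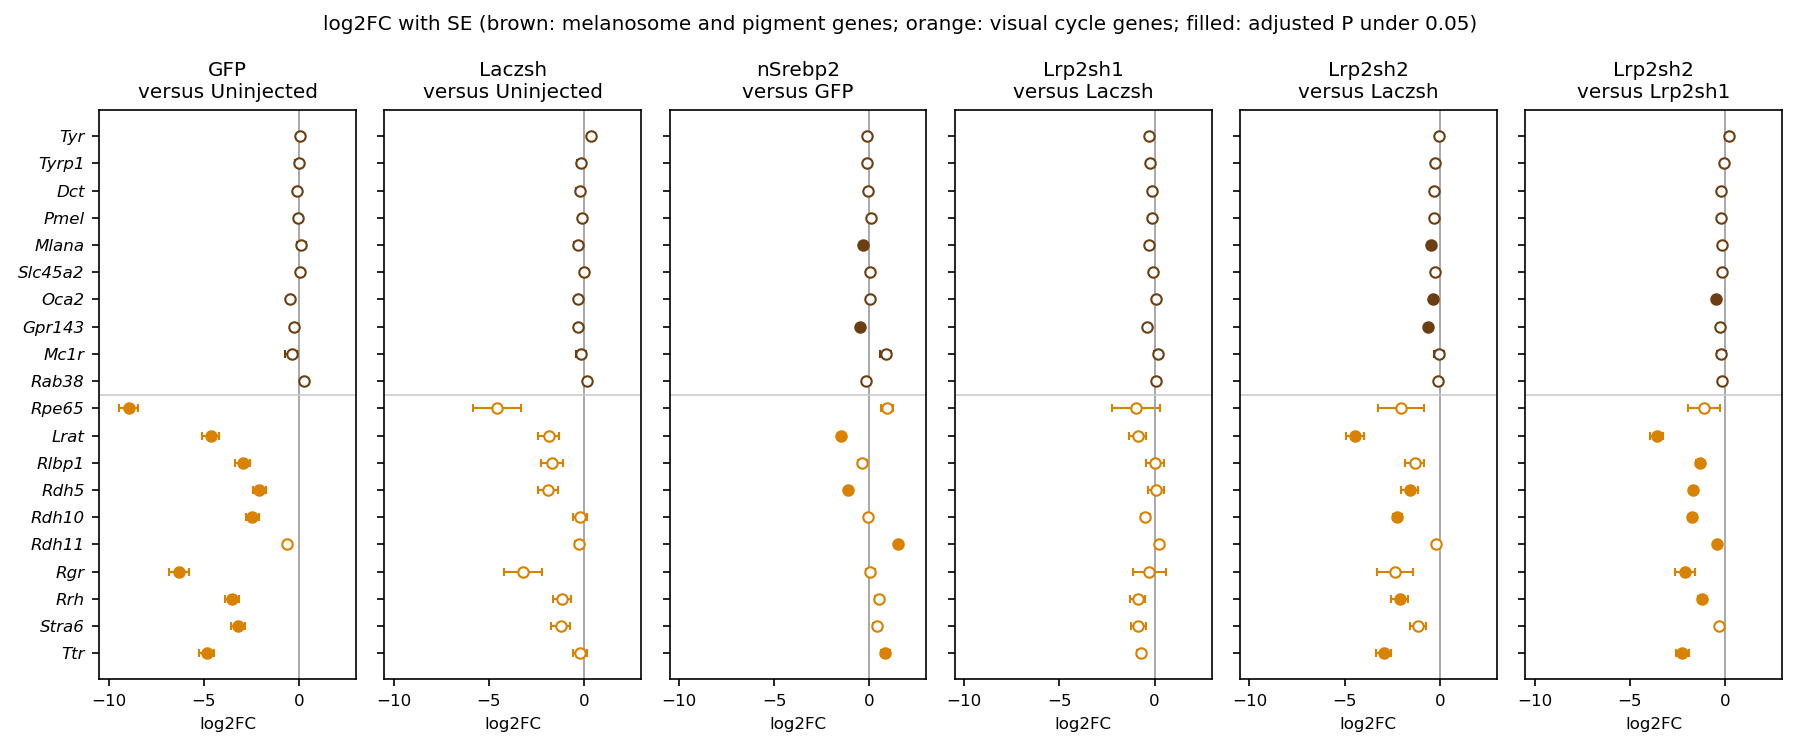
The log2FC (x axes) of the 10 pigment genes (brown, upper) and of 10 of the 11 visual cycle genes (orange, lower) in 6 comparisons; points are edgeR estimates, bars are ± SE and filled points passed the test. The pigment genes lie between −0.64 and 0.86 in every panel, and the visual cycle genes reach −8.95 in GFP versus Uninjected.

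Whether nSREBP2 and a hairpin acted differently on a gene was tested as the difference of their responses, each against its own control, in a fit of all 18 libraries. For nSrebp2 minus Lrp2sh2, by edgeR 0 of the 10 pigment genes passed, beside 5.63% of the 19744 genes tested, with 3 at an unadjusted *P* under 0.05 and 0 by DESeq2. The differences ran from −0.12 (*Rab38*) to 0.89 (*Mc1r*) on the log2 scale, and that of *Pmel* was 0.43 (SE 0.17; edgeR, adjusted *P* = 0.17). For nSrebp2 minus Lrp2sh1, by edgeR 0 of the 10 passed, beside 9.75% of genes, with 0 at an unadjusted *P* under 0.05 and 0 by DESeq2, and the differences ran from −0.27 (*Rab38*) to 0.68 (*Mc1r*). The fall of *Gpr143* and *Mlana* with nSrebp2 was therefore not shown to differ from that with Lrp2sh2: the differences were 0.16 (SE 0.21; edgeR, adjusted *P* = 0.75) and 0.079 (SE 0.26; edgeR, adjusted *P* = 0.913). Among the visual cycle genes 5 of 11 differed between nSrebp2 and Lrp2sh2, and 1 of 11, *Rdh11*, between nSrebp2 and Lrp2sh1.

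Other genes of pigment cells were counted in the same comparisons. Of all genes tested, the shares higher and lower were 12.6% and 8.47% in nSrebp2 versus GFP, 3.06% and 2.28% in Lrp2sh1 versus Laczsh, 8.59% and 9.48% in Lrp2sh2 versus Laczsh, 10.2% and 12.3% in Lrp2sh2 versus Lrp2sh1, 0.662% and 1.82% in GFP versus Uninjected, and 3.13% and 3.37% in Laczsh versus Uninjected, and the counts of each list stand beside these. Of the 10 transcription factors 2 fell in nSrebp2 versus GFP, *Otx2* (log2FC −1.69), which acts in RPE specification, and *Sox9* (−0.60). *Mitf*, the master regulator of pigment cells, was at 242, 247 and 229.9 CPM in the Laczsh libraries, at 162, 168 and 164 CPM in the Lrp2sh1 libraries and at 158, 167 and 173 CPM in the Lrp2sh2 libraries. Neither hairpin group overlapped the control, and *Mitf* fell by 0.54 with Lrp2sh1 (edgeR, adjusted *P* = 0.000969) and by 0.52 with Lrp2sh2 (edgeR, adjusted *P* = 0.00076). Both falls rest on the same Laczsh libraries, in which *Mitf* was at log2FC 0.32 against Uninjected (edgeR, adjusted *P* = 0.293). In nSrebp2 versus GFP *Mitf* did not pass (log2FC 0.089; edgeR, adjusted *P* = 0.742). *Sox9* rose with Lrp2sh1 (0.42), 1 of 10 higher and 1 lower. With Lrp2sh2, *Otx2* (−1.08) and *Sox9* (−0.42) fell beside *Mitf*, 1 of 10 higher and 3 lower. Between the hairpins 2 were higher with Lrp2sh2, *Pax6* (1.45) among them, and *Sox9* (−0.84) and *Otx2* (−0.75) were lower. In GFP versus Uninjected 0 of the 10 passed by edgeR (0 at an unadjusted *P* under 0.05, 0 by DESeq2) and 0 in Laczsh versus Uninjected (1 and 0).

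Among the 14 other proteins of the melanosome membrane and lumen, *Slc24a5*, a cation exchanger of the melanosome, fell with nSrebp2 (log2FC −0.35), with Lrp2sh1 (−0.27) and with Lrp2sh2 (−0.54). *Slc24a5* was at 170.3, 174 and 159 CPM with GFP and at 143, 132 and 121.5 CPM with nSrebp2, at 177, 166 and 166 CPM with Laczsh, at 147, 135 and 141 CPM with Lrp2sh1 and at 119.8, 116 and 112 CPM with Lrp2sh2. Treated libraries lay below their controls in each case. *Mfsd12* (0.61), *Gpnmb* (0.54) and *Cd63* (0.27) rose with nSrebp2, and *Atp7a*, the copper pump that loads tyrosinase, fell with Lrp2sh2 (−0.33) and was higher in Laczsh than in Uninjected (0.47). Between the hairpins *Slc7a11* was higher with Lrp2sh2 (1.91), and *Mfsd12* (−0.42), *Cd63* (−0.31) and *Slc24a5* (−0.28) were lower. None of them passed in GFP versus Uninjected by edgeR (0 of 13), with 1 at an unadjusted *P* under 0.05 and 0 by DESeq2.

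Of 26 genes of the HPS, BLOC, AP-3 and HOPS complexes, which sort cargo to the melanosome, 0 passed by edgeR in nSrebp2 versus GFP, GFP versus Uninjected and Laczsh versus Uninjected, with 4, 5 and 7 at an unadjusted *P* under 0.05 and 0 in each by DESeq2. Of the same genes 3 were higher with Lrp2sh1 (*Ap3s2* 0.32, *Ap3s1* 0.30 and *Ap3m1* 0.29), and with Lrp2sh2 *Bloc1s2* was higher (0.95) and *Vps39* lower (−0.27). Between the hairpins 2 were higher and 5 lower, with *Snapin* at −0.56, *Hps4* at −0.43 and *Ap3s1* at −0.35. Among the 14 genes of melanosome transport *Myrip*, which links RAB27A to myosin VIIa in the RPE, was at 74.8, 155 and 153 CPM in the Uninjected and at 41.0, 39.4 and 38.2 CPM in the GFP libraries (log2FC −1.71; edgeR, adjusted *P* = 0.0118). It fell again in nSrebp2 versus GFP (−0.96) and in Lrp2sh2 versus Laczsh (−2.38). *Rilp* fell in the latter pair too (−1.55 and −1.28), and *Kif13a* with Lrp2sh2 (−0.24), which made 2 of 14 lower with nSrebp2 and 3 of 13 with Lrp2sh2. *Kif5b* rose with Lrp2sh1 (0.24), 1 of 13. Between the hairpins 5 of 13 were lower with Lrp2sh2, led by *Myrip* (−2.20) and *Rilp* (−1.23), and *Rab27b* was higher (0.60).

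The signalling genes upstream of melanin synthesis included 10 that could be tested of 12. *Gnas*, the G protein subunit through which MC1R acts, fell with nSrebp2 (log2FC −0.51), Lrp2sh1 (−0.39) and Lrp2sh2 (−0.77). *Ednrb*, the endothelin receptor of melanocytes, fell with nSrebp2 (−0.36) and Lrp2sh2 (−0.43), *Atrn* with nSrebp2 (−0.29) and *Kit* with Lrp2sh2 (−0.30), which made 3 of 10 lower with nSrebp2, 1 of 10 with Lrp2sh1 and 3 of 10 with Lrp2sh2. Between the hairpins *Gnas* (−0.39) and *Edn3* (−0.26) were lower with Lrp2sh2. The count by edgeR was 0 of 10 in GFP versus Uninjected (0 at an unadjusted *P* under 0.05, 0 by DESeq2) and 0 in Laczsh versus Uninjected (1 and 0).

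Likeness over the 18 libraries was measured as Pearson's r of log2 CPM and is a description only, since libraries of a group share their treatment. *Tyrp1*, *Dct*, *Pmel*, *Mlana* and *Slc45a2* had r of 0.76 to 0.94 with each other, the highest between *Tyrp1* and *Mlana*. *Tyr* had r of −0.16 (*Mc1r*) to 0.48 (*Rab38*) with the other 9 genes. Among 12358 genes with a mean of at least 5 CPM, those outside the list that were like *Tyr* included *Ppp2r1a* (r = 0.84), *Tmx1* (0.84), *Vat1l* (0.83) and *Dhx36* (0.83). Those most like *Pmel* were *Zfyve21* (0.89), *Tmem51* (0.88), *Tecpr1* (0.86), *Bace2* (0.85) and *Tbx1* (0.85).

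MITF and its relatives bind the M-box, whose core is TCATGTG, in promoters of pigment genes, so the promoter windows of the list were searched for it on both strands. The RefSeq windows, on GRCm38.p6, run from 250 bases before to 50 bases after the start of a gene and matched 5 of the 10 pigment genes and 8 of the 11 visual cycle genes. TCATGTG was in the windows of 4 of 5 pigment genes (*Tyr*, *Tyrp1*, *Dct* and *Mc1r*) and of 0 of 8 visual cycle genes, and in 3.77% of 32851 promoters. CATGTG, which TCATGTG contains, was in 5 of 5 pigment genes, in 3 of 8 visual cycle genes and in 14.2% of promoters, and CACGTG, which shares no full match with the M-box, was in 0 of 5, in 1 of 8 and in 7.15%. The M-box was searched for because it is known from promoters of pigment genes, so these counts are a description and not a test. A match of letters is not a bound site. Counted from the base at the start, the M-box core began at −22 in *Tyr*, −47 in *Tyrp1*, −52 in *Mc1r*, and −151 and, on the reverse strand, −232 in *Dct*. Between the hairpins *Oca2* alone of the pigment genes passed edgeR's test, and DESeq2 called *Pmel* as well. The windows of the enzyme genes and of *Oca2* are shown because they place these letters, and the matches on either strand are in capitals. They lie at chr7:87493463-87493762 (*Tyr*, minus strand), chr4:80833963-80834262 (*Tyrp1*, plus strand), chr14:118052197-118052496 (*Dct*, minus strand) and chr7:56239509-56239808 (*Oca2*, plus strand) and are written 5′ to 3′.
Tyr: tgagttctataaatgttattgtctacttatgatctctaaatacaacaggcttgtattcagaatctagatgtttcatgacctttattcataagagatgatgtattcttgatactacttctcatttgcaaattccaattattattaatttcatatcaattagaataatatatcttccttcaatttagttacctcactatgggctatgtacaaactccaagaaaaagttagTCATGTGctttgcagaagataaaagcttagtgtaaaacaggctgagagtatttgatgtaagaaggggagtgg
Tyrp1: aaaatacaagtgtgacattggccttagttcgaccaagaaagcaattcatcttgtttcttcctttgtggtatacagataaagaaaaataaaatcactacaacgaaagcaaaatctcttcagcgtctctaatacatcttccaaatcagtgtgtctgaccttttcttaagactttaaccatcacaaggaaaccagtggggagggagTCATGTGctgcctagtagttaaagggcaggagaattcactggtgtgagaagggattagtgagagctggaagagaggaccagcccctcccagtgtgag
Dct: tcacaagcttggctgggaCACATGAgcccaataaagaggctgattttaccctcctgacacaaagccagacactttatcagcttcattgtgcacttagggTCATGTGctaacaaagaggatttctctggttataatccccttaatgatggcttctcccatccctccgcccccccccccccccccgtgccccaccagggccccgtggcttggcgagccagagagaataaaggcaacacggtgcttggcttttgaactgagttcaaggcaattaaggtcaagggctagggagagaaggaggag
Oca2: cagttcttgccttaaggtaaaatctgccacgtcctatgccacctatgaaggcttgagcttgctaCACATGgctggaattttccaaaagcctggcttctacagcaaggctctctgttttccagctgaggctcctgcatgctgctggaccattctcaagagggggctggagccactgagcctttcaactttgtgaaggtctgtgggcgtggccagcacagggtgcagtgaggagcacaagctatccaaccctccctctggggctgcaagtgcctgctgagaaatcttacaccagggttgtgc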

How the data were processed

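Libraries of mouse RPE depleted of ribosomal RNA (18 libraries, 6 groups of 3) were analysed from the raw read counts per gene deposited by the authors, who mapped reads to GRCm38 and counted them with STAR 2.7.3a. The gene annotation used for counting and whether strand was used are not given in the sources used here. Groups came from the sample labels. Library totals ranged from 8921885 to 13696934 counts.

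Each pair of groups was fitted on its own 6 libraries in R 4.3.3 with edgeR 4.0.16 (filterByExpr, TMM, quasi-likelihood F test, Benjamini-Hochberg adjustment over all genes tested, threshold 0.05). Differences of responses were contrasts in a fit of 18 libraries. Levels are CPM with TMM factors over the 18 libraries, and values per kb use merged exons of GENCODE M21. Replicates were compared by chi-square over genes, and every pair within a group differed by more than sampling noise (lowest ratio to the degrees of freedom 3.30). Sex was read from Y-linked genes (10 CPM in sum). The steps were tested on simulated data with planted changes of 2-fold and 4-fold. Of 100 changes of 2-fold, edgeR recovered 81 in nSrebp2 versus GFP and 81 in Lrp2sh2 versus Laczsh. Changes below 2-fold, as those of the pigment genes were, were not simulated.

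The pigment genes, visual cycle genes, other lists and markers were chosen with earlier results of these data known. Some single genes of the other lists, of the markers and of the likeness ranking, and 1 visual cycle gene, are not reported here, but they remain in the list counts, sums and medians. All pigment genes are named. Of each other list up to 3 genes with the largest absolute log2FC among those past the test are named in a comparison, and of marker lists the most abundant gene and examples past the test. Where 4 genes of a list passed, the one with the smallest change (*Cd63*, *Sox9*, *Otx2* or *Slc24a5*) was named as well, after its value was seen. Likeness was Pearson's r of log2 CPM, given for *Tyr* and *Pmel* because *Mc1r* had a mean under 5 CPM.

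Each result was recomputed with DESeq2 1.42.0, with edgeR on DESeq2's size factors or on library totals, with unfiltered genes or genes of 10 or more counts throughout, with a fit of 18 libraries, sex as a term, the replicate number as a block, an absolute log2FC above 1, and leaving out each library. A fit of Laczsh versus Uninjected without the first library of each group was chosen after seeing the data. P-values rest on the spread between 3 mice per group. Shares of all genes tested are given for edgeR's adjusted *P* and for groups without overlap. Counts at an unadjusted *P*, by DESeq2 or under the other alternatives have no such share beside them.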

Additional observations from a re-analysis of the deposited data

Results flagged for a closer look

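Among the pigment and visual cycle genes, 6 differences of responses on the log2 scale passed the test, and all were in visual cycle genes. As a signed difference, the response to nSrebp2 minus that to Lrp2sh2 was 3.78 for *Ttr* (edgeR, adjusted *P* = 0.000563) and 2.98 for *Lrat* (0.0238). It was 2.63 for *Rrh* (0.0164), 2.16 for *Rdh10* (0.00549) and 1.69 for *Rdh11* (0.000255). In Lrp2sh2 versus Laczsh the log2FC was −4.44 for *Lrat*, −2.94 for *Ttr*, −2.22 for *Rdh10* and −2.10 for *Rrh*. In nSrebp2 versus GFP *Lrat* was at −1.47 and *Ttr* at 0.84, and *Rdh10* and *Rrh* did not pass. *Rdh11* rose with nSrebp2 and did not pass with Lrp2sh2. The response to nSrebp2 minus that to Lrp2sh1 was 1.27 for *Rdh11* (edgeR, adjusted *P* = 0.00201). The GFP libraries, from which the response to nSrebp2 was measured, were already low in *Ttr* (72.2, 62.3 and 40.4 CPM), whereas the Laczsh libraries were at 1954, 1133 and 1261 CPM. By edgeR 0 of the 10 pigment genes differed in either contrast, with 3 and 0 at an unadjusted *P* under 0.05 and 0 in each by DESeq2.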

How the results depend on the processing

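The pigment genes past the test in a comparison (6 results) gave 90 values under the alternatives, of which 66 stayed past it, 24 did not and 0 changed direction. Those that had not passed (54 results, 820 values) stayed so in 749, passed in 31 and changed direction in 40. For visual cycle genes past the test 493 of 540 values stayed past it and 47 did not. Of those that had not passed (38 results, 581 values) 498 values stayed so, 58 passed and 25 changed direction. The cause of each change below was not tested. Among the pigment genes *Mc1r* had the lowest levels, at most 6.10 CPM in a library.

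With an absolute log2FC above 1, 0 pigment genes were called in nSrebp2 versus GFP, 0 in Lrp2sh2 versus Laczsh and 0 in Lrp2sh2 versus Lrp2sh1 (edgeR; unadjusted and DESeq2 counts stand with each comparison). DESeq2 called 3, 5 and 2 pigment genes in Lrp2sh1 versus Laczsh, Lrp2sh2 versus Laczsh and Lrp2sh2 versus Lrp2sh1, and 1 visual cycle gene in Laczsh versus Uninjected, where *Slc45a2* was at 0.00084. Without a filter the pigment counts were 3, 5 and 2 in the same comparisons and 1 in GFP versus Uninjected, and the visual cycle counts were 4 (Lrp2sh1 versus Laczsh, all lower), 9 (Lrp2sh2 versus Laczsh) and 6 (Laczsh versus Uninjected, *Slc45a2* at 0.0031). With at least 10 counts, 1 pigment gene passed in Lrp2sh1 versus Laczsh, and *Tyrp1* was at −0.0010 in GFP versus Uninjected. In a fit of 18 libraries 1 pigment gene passed in Lrp2sh2 versus Laczsh and 1 in GFP versus Uninjected, and 1, 4 and 7 visual cycle genes in nSrebp2 versus GFP, Lrp2sh2 versus Lrp2sh1 and Laczsh versus Uninjected.

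With sex as a term 1 pigment gene passed in nSrebp2 versus GFP and 1 in Laczsh versus Uninjected, and 1, 4 and 4 visual cycle genes in nSrebp2 versus GFP, Lrp2sh2 versus Lrp2sh1 and Laczsh versus Uninjected. In nSrebp2 versus GFP the log2FC was then −0.092 for *Slc45a2*, −0.24 for *Oca2*, −0.090 for *Rpe65* and −0.95 for *Rgr*. It was −0.067 for *Tyr* in Lrp2sh2 versus Lrp2sh1, and 0.043 for *Slc45a2*, 0.011 for *Rdh10* and 0.038 for *Ttr* in Laczsh versus Uninjected. With library totals it was −0.023 for *Slc45a2*, −0.050 for *Oca2* and −0.031 for *Rgr* in nSrebp2 versus GFP, −0.033 for *Rlbp1* in Lrp2sh1 versus Laczsh and 0.0049 for *Tyrp1* in Lrp2sh2 versus Lrp2sh1. The 4-library fit of Laczsh versus Uninjected, chosen after seeing the data, gave 2 pigment and 11 visual cycle genes.

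Between libraries with the same replicate number, deviations from group means correlated from −0.36 to 0.32. The highest values were in Lrp2sh2 versus Lrp2sh1, at −0.0072, 0.29 and 0.32 for replicates 1, 2 and 3. Libraries with different numbers were not compared, so whether the numbers pair the libraries was not tested. With the replicate number as a block, 2 pigment genes passed in nSrebp2 versus GFP, 4 in Lrp2sh2 versus Laczsh (not *Oca2*) and 1 in Lrp2sh2 versus Lrp2sh1. In Lrp2sh1 versus Laczsh *Rpe65* was at 0.23 and *Rgr* at 0.71, and in Laczsh versus Uninjected *Slc45a2* was at 0.0015.

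Leaving out each library in turn gave 1 to 2 pigment genes in nSrebp2 versus GFP, 1 to 5 in Lrp2sh2 versus Laczsh, 1 to 2 in Lrp2sh2 versus Lrp2sh1, 0 to 2 in GFP versus Uninjected and 0 to 1 in Laczsh versus Uninjected. Visual cycle genes numbered 0 to 4 (all higher) in Lrp2sh1 versus Laczsh, 3 to 6 in Lrp2sh2 versus Laczsh, 6 to 11 in GFP versus Uninjected, 0 to 7 in Laczsh versus Uninjected and 1 to 2 in the difference of the nSrebp2 and Lrp2sh1 responses. The log2FC that changed sign ranged, in nSrebp2 versus GFP, from −0.18 to 0.015 for *Dct*, −0.016 to 0.17 for *Slc45a2*, −0.040 to 0.15 for *Oca2*, −0.16 to 0.10 for *Rdh10* and −0.21 to 0.39 for *Rgr*. In Lrp2sh1 versus Laczsh they ranged from −0.0024 to 0.14 for *Rab38*, −2.97 to 2.999 for *Rpe65*, −0.32 to 1.07 for *Rlbp1*, −0.21 to 0.92 for *Rdh5* and −1.07 to 2.05 for *Rgr*. In Lrp2sh2 versus Laczsh they ranged from −0.14 to 0.021 for *Tyr*, −0.23 to 0.15 for *Mc1r*, −0.12 to 0.0056 for *Rab38* and −2.93 to 1.901 for *Rpe65*, and in Lrp2sh2 versus Lrp2sh1 from −0.15 to 0.068 for *Tyrp1* and −1.96 to 0.91 for *Rpe65*. In GFP versus Uninjected they ranged from −0.12 to 0.297 for *Tyr*, −0.16 to 0.297 for *Tyrp1*, −0.27 to 0.11 for *Dct*, −0.17 to 0.072 for *Pmel*, −0.063 to 0.496 for *Mlana* and −0.060 to 0.25 for *Slc45a2*. In Laczsh versus Uninjected they ranged from −0.33 to 0.13 for *Tyrp1*, −0.21 to 0.030 for *Pmel*, −0.51 to 0.053 for *Mlana*, −0.15 to 0.17 for *Slc45a2*, −0.35 to 0.046 for *Mc1r* and −0.59 to 0.098 for *Rdh10*.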
